A study of Mus musculus with 20 samples.

Results

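The genes described here are the splicing regulators of the SR, heterogeneous nuclear ribonucleoprotein (hnRNP), polypyrimidine tract-binding (PTB) and poly(C)-binding (PCBP) families in mouse CD4+ T cells with and without Pcbp2. Members were all protein-coding genes in the count table whose symbol starts with Srsf, Hnrnp, Pcbp or Ptbp. There were 38 of them among 49315 gene IDs, 11 Srsf, 20 Hnrnp, 4 Pcbp and 3 Ptbp genes, and 2 non-coding genes with such symbols (Hnrnpa1l2-ps and Hnrnpa1l2-ps2) were left out. All 38 passed the filter on low counts.

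SR proteins carry arginine-serine repeats, bind exonic enhancers and generally promote the use of an exon. Many hnRNP proteins bind silencers and keep exons out, PTB proteins do so at pyrimidine-rich tracts, and PCBP proteins use KH domains to bind C-rich RNA in splicing, mRNA stability and translation. In T cells the family is best known for hnRNP L and its relative hnRNP LL, which act on the variable exons of the phosphatase CD45.

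RNA came from splenic T effector cells, sorted as CD4+ and CD25-. Every mouse carried floxed Pcbp2 alleles, per the labels. CKO mice also carried CD4-Cre, a recombinase whose driver acts in developing T cells, and CTL mice were littermates without it. Samples were taken without culture (0 h), or 6 h after adding beads coated against CD3, part of the T cell receptor complex, and the costimulatory receptor CD28. The 20 libraries fall into 6 CTL and 6 CKO at 0 h, and 5 CTL and 3 CKO at 6 h. Ages are not given in the labels. No bead-free 6 h culture is among the libraries used, so effects of stimulus and of culture cannot be told apart. The series title names CD4+ T cell development and proliferation as the process in which Pcbp2 is needed, and the comparisons ask which genes differ with genotype and with stimulation. Libraries are named by group and by the number in their title, such as 4.24. The labels do not say what that number marks and do not tie libraries to animals, so p-values measure the spread between these libraries, which may in part be technical.

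The deposited values are read counts per gene, given below as CPM, the counts divided by a TMM-scaled library size, and the members together took 1.16% to 1.48% of a library's counts. Differences are log2 fold changes ± standard error from edgeR's quasi-likelihood test over 28082 genes, and a gene is called where its Benjamini-Hochberg adjusted p is under 0.05. Levels after ± are standard deviations (SD). Changes are relative to all RNA counted: in bulk RNA, fewer cells of a type and less RNA per cell cannot be told apart. Several members have close paralogues or pseudogene copies and how the authors treated reads that match several places is not stated in the labels, which leaves values of such genes, among them Hnrnpa1, uncertain.

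Libraries held 62.4 M to 85.6 M counts, except CTL 6 h library 4.24 with 26.4 M. That library stood apart in other ways: 93.5% of its counts were in protein-coding genes against 95.6% to 97.6% in the other 19, 0.909% were in processed pseudogenes against 0.126% to 0.254%, and 23190 genes were above 1 CPM against 13179 to 14827. It was the lowest of its group for 31 of the 38 members, and its median member lay 0.55 log2 units below the median of the other CTL 6 h libraries, where the same measure ran from -0.10 to 0.12 in the other 19. CKO 0 h libraries 4.24 and 5.6 were labelled male but had Xist at 1160 and 1353 CPM and the Y-linked Ddx3y at 0.284 and 0.117 CPM. CKO 6 h library 5.6 was labelled female. The labels call every CKO 0 h library male and give both sexes among the CTL 0 h libraries. The labelled sex, a term of the fit, thus goes partly with genotype at 0 h. Results that rest on CTL 6 h library 4.24 are given with and without it. T cell markers were expressed in every group, 8 of 8 above a mean of 1 CPM. Their summed level was 4430 to 5860 CPM in CTL and 5000 to 6200 CPM in CKO at 0 h, and 1870 to 2810 CPM and 2390 to 2880 CPM at 6 h. Markers of B cells (7 of 7 above a mean of 1 CPM in CTL and CKO at 0 h) summed to 54.6 to 337 CPM in CTL and 45.8 to 216 CPM in CKO at 0 h, and to 15.7 to 31.5 CPM and 19.5 to 84.0 CPM at 6 h. Myeloid markers (6 of 7 at 0 h, 3 of 7 at 6 h) moved the same way, from 25.2 to 98.6 CPM and 31.9 to 88.1 CPM down to 3.21 to 14.7 CPM and 4.08 to 15.8 CPM, and no gene of either list was at 0 throughout a group. CD8 T cell markers summed to 19.2 to 114 CPM in CTL and 26.5 to 52.4 CPM in CKO at 0 h, and to at most 21.1 CPM at 6 h. Dendritic markers summed to 13.5 to 110 CPM in CTL and 27.7 to 144 CPM in CKO at 0 h, and to at most 46.7 CPM at 6 h. NK markers summed to at most 62.5 CPM at 0 h and 30.9 CPM at 6 h, and erythroid and platelet markers to at most 3.14 CPM in any library. Stromal and endothelial markers, a list of 4 that includes Pecam1, summed to 231 to 277 CPM in CTL and 257 to 338 CPM in CKO at 0 h. At 6 h they summed to 172 to 244 CPM in CTL and 251 to 355 CPM in CKO, without overlap of the genotypes. Most of this was Pecam1, at 229 to 274 CPM in CTL and 253 to 335.5 CPM in CKO at 0 h. At 6 h Pecam1 was at 148 to 242 CPM in CTL and 248 to 353 CPM in CKO. The sums of these marker lists differ between times or genotypes, and their part in the results was not tested. Il2ra, which encodes the CD25 against which the cells were sorted, was at 9.25 to 32.7 CPM at 0 h and 89.4 to 309 CPM at 6 h.

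**Figure D1:**
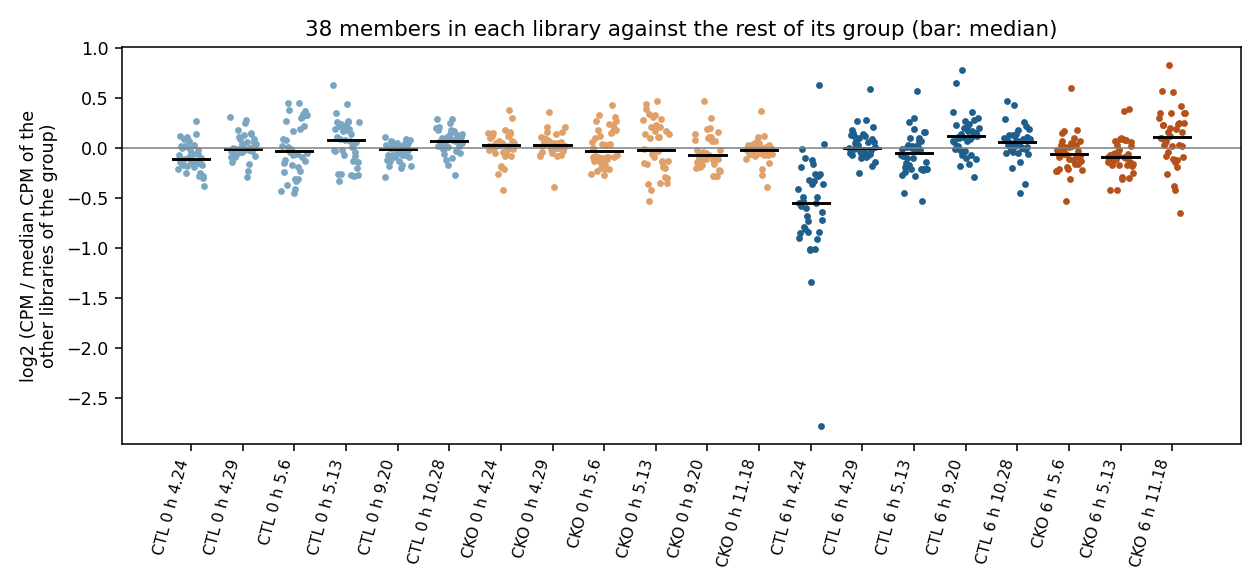
Deviation of each member's log2 CPM from the median of the other libraries of its group, by library. Points are the 38 members and bars their medians. CTL 6 h library 4.24 has a median of -0.55, and the other 19 libraries lie between -0.10 and 0.12.

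Levels between members are compared per kilobase of merged exons (RPKM). In unstimulated CTL cells (n = 6) they ranged from 196 ± 26.4 RPKM for Srsf5 to 1.25 ± 0.125 RPKM for Srsf12. Next to Srsf5 stood the abundant RNA-binding proteins Hnrnpa0 (179 ± 40.0 RPKM), Hnrnpa2b1 (172 ± 8.86 RPKM) and Hnrnpa1 (166 ± 14.8 RPKM), and the libraries of these 4 overlapped, so their order is not resolved. Among poly(C)-binding genes the order was Pcbp1 (129 ± 22.1 RPKM), Pcbp2 (64.1 ± 9.02 RPKM), Pcbp4 (4.49 ± 0.454 RPKM) and Pcbp3 (2.56 ± 0.262 RPKM), and no library of a higher gene reached down to one of the next. Ptbp1 stood at 90.7 ± 7.78 RPKM, Ptbp3 at 53.8 ± 5.08 RPKM and Ptbp2, the form typical of neurons, at 6.39 ± 1.03 RPKM, again without overlap. Hnrnpll, the relative of Hnrnpl, was at 9.43 ± 0.620 RPKM and Hnrnpl at 99.2 ± 6.39 RPKM. The low value of Hnrnpr, 8.96 ± 0.627 RPKM, was computed over 22199 bases of merged exons, so it depends on the annotated length.

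Pcbp2 (chr15:102470539-102500061, plus strand, GRCm38), the deleted gene, checks the labels. At 0 h its lowest, median and highest level was 261, 328 and 396 CPM in the 6 CTL libraries and 13.1, 17.4 and 22.1 CPM in the 6 CKO libraries. At 6 h the CTL libraries held 262 (4.24), 330.2 (5.13), 331 (4.29), 339.9 (10.28) and 348 (9.20) CPM, and the CKO libraries 7.27 (11.18), 7.59 (5.13) and 11.3 (5.6) CPM. Every CKO library was far below every CTL library at both times, so the counts of Pcbp2 go with the genotype labels. CKO cells kept 5.09% of the CTL mean at 0 h (17.0 ± 3.38 against 333 ± 46.9 CPM, n = 6 and 6) and 2.704% at 6 h (8.72 ± 2.24 against 322 ± 34.5 CPM, n = 3 and 5). In edgeR's test Pcbp2 fell by 4.30 ± 0.17 log2 units at 0 h (adjusted p = 3.78e-12) and by 5.21 ± 0.23 at 6 h (adjusted p = 3.22e-11). An exact two-sided permutation test over libraries gave p = 0.00216 at 0 h (924 assignments) and p = 0.0179 at 6 h (56 assignments), in both cases the smallest value the design allows. Paired by number, the 5 shared pairs at 0 h gave a mean difference of -4.35 log2 units and an exact sign-flip p of 0.0625, the smallest that 5 pairs (32 sign patterns) can give, so this pairing alone cannot pass 0.05.

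The residual Pcbp2 signal in CKO cells was itself lower after stimulation. From 0 h to 6 h it fell by 0.96 ± 0.19 log2 units in CKO (adjusted p = 0.00113, called under all 32 alternatives), while in CTL the change was -0.05 ± 0.15 (adjusted p = 0.789). The difference between these responses was -0.91 ± 0.24 with an unadjusted p of 0.00128 and an adjusted p of 0.465, so it did not pass the threshold over all genes. Map3k12 is a kinase gene on the opposite strand whose exons overlap those of Pcbp2 over 1573 bases. Between genotypes Map3k12 moved the other way from Pcbp2. It stood at 22.2 ± 2.11 CPM in CTL and 43.2 ± 3.98 CPM in CKO at 0 h (n = 6 and 6), and rose by 1.04 ± 0.11 (adjusted p = 2.85e-05). At 6 h the levels were 14.4 ± 2.31 and 26.6 ± 3.83 CPM (n = 5 and 3), a rise of 0.90 ± 0.12 (adjusted p = 0.000875), and the groups did not overlap at either time. From 0 h to 6 h Map3k12 was lower in both genotypes. It changed by -0.62 ± 0.10 in CTL (adjusted p = 6.09e-05) and by -0.75 ± 0.13 in CKO (adjusted p = 0.000242). Because no label states the strand setting of the counting, reads of the shared bases cannot be told apart.

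No member other than Pcbp2 was called between genotypes at either time. At 0 h 1 of 38 members (Pcbp2) was called, where 0.424% of all genes tested were (0.231% higher and 0.192% lower), and at 6 h again 1 of 38, where 0.292% were (0.253% higher and 0.0392% lower). Without CTL 6 h library 4.24 the member count was still 1 at each time, against 1.06% (0.539% higher, 0.52% lower) and 0.434% (0.37% higher, 0.0636% lower) of all genes. Of the other 37, Ptbp2 alone had an unadjusted p under 0.05 at 0 h (0.0384) and Hnrnpul1 alone at 6 h (0.0259). The count stayed at 0 under all 32 alternatives, DESeq2 among them. The smallest adjusted p they gave was 0.0507 for Ptbp2 at 0 h, with number as a block, sex taken from Xist and CTL 6 h library 4.24 left out, and 0.166 for Hnrnpul1 at 6 h with DESeq2. A missed threshold does not show equal levels. The 95% interval of the difference lay within 1.5-fold either way for 35 of the 37 at 0 h (all but Srsf4 and Srsf12) and for 32 of 37 at 6 h (all but Hnrnpul1, Hnrnpul2, Ptbp1, Srsf4 and Srsf12). The median of the 38 members was -0.04 log2 units at 0 h and 0.06 at 6 h, beside 0.05 and -0.29 for all genes tested and -0.01 and 0.06 for the 14446 genes with a mean of at least 1 CPM.

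**Figure D2:**
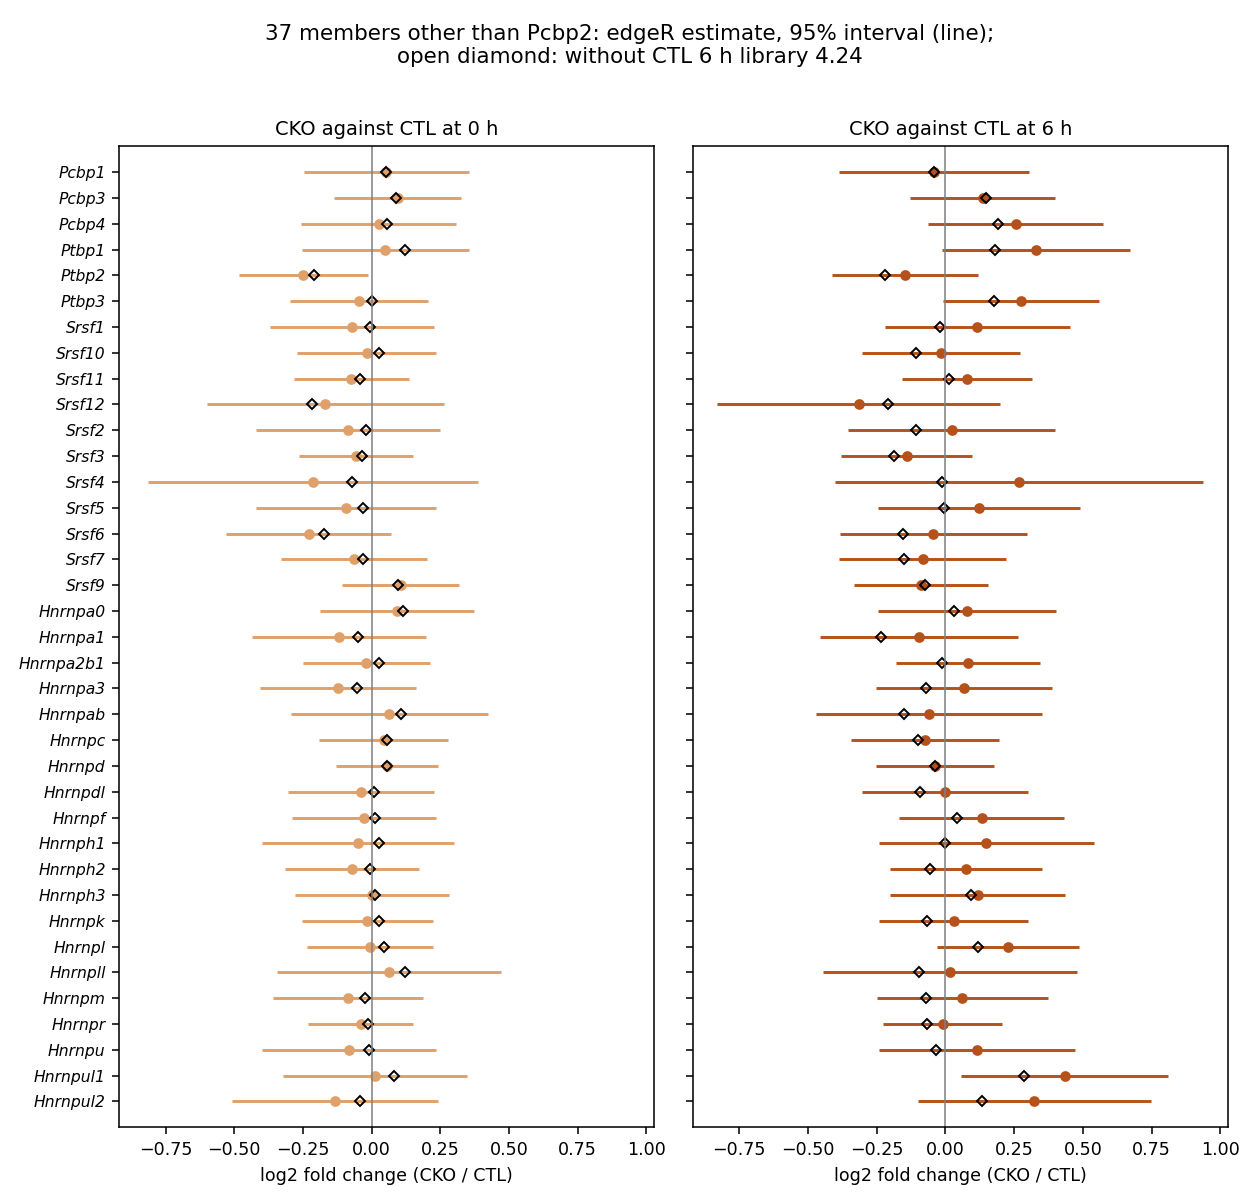
Log2 fold change of CKO against CTL for the 37 members other than Pcbp2, at 0 h and at 6 h, with 95% intervals. Open diamonds give the value without CTL 6 h library 4.24. None of the 37 passed an adjusted p of 0.05 at either time, and at 6 h the largest value, 0.43 for Hnrnpul1, was 0.28 without that library.

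The other poly(C)-binding genes did not pass the test in either comparison of genotypes. Pcbp1, an intronless relative of Pcbp2 that binds the same C-rich motifs, had a lowest, median and highest level of 181, 229 and 298 CPM in CTL and 221, 244 and 333 CPM in CKO at 0 h. At 6 h its CTL libraries stood at 236 (5.13), 264 (4.24), 269 (4.29), 303 (10.28) and 309 (9.20) CPM and its CKO libraries at 234 (5.6), 234 (5.13) and 346 (11.18) CPM. The genotypes overlapped at both times, with differences of 0.05 (95% interval -0.25 to 0.35) at 0 h and -0.04 (-0.39 to 0.31) at 6 h. Pcbp3 was at 6.764, 7.159 and 8.504 CPM in CTL and 7.46, 8.49 and 9.62 CPM in CKO at 0 h. At 6 h it was at 5.65 (10.28), 6.90 (4.24), 7.51 (5.13), 7.86 (4.29) and 8.12 (9.20) CPM in CTL and 7.42 (11.18), 8.11 (5.6) and 8.25 (5.13) CPM in CKO, and the differences were 0.10 (-0.14 to 0.33) and 0.14 (-0.13 to 0.40). Here too the ranges of CTL and CKO crossed at each time. Pcbp4 had 17.4, 18.7 and 21.4 CPM in CTL and 17.7, 20.6 and 24.3 CPM in CKO at 0 h, a difference of 0.02 (-0.26 to 0.31). Its 6 h values are given with the stimulation results, and the difference there was 0.26 (-0.06 to 0.57). In the 5 same-numbered pairs at 0 h each of Pcbp1, Pcbp3 and Pcbp4 was higher in CKO in 5 of 5, as 15.2% of 14189 genes with a mean TMM-scaled level of at least 1 CPM were. Hnrnpk, which shares the KH-type poly(C)-binding fold with the PCBP proteins, was at 557, 572 and 675 CPM in CTL and 548, 601 and 693 CPM in CKO at 0 h. Its 6 h values were 386 (4.24), 520.4 (5.13), 571 (4.29), 599 (10.28) and 603 (9.20) CPM in CTL and 522 (5.13), 535 (5.6) and 589.6 (11.18) CPM in CKO, and apart from library 4.24 the genotypes lay in the same range.

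**Figure D3:**
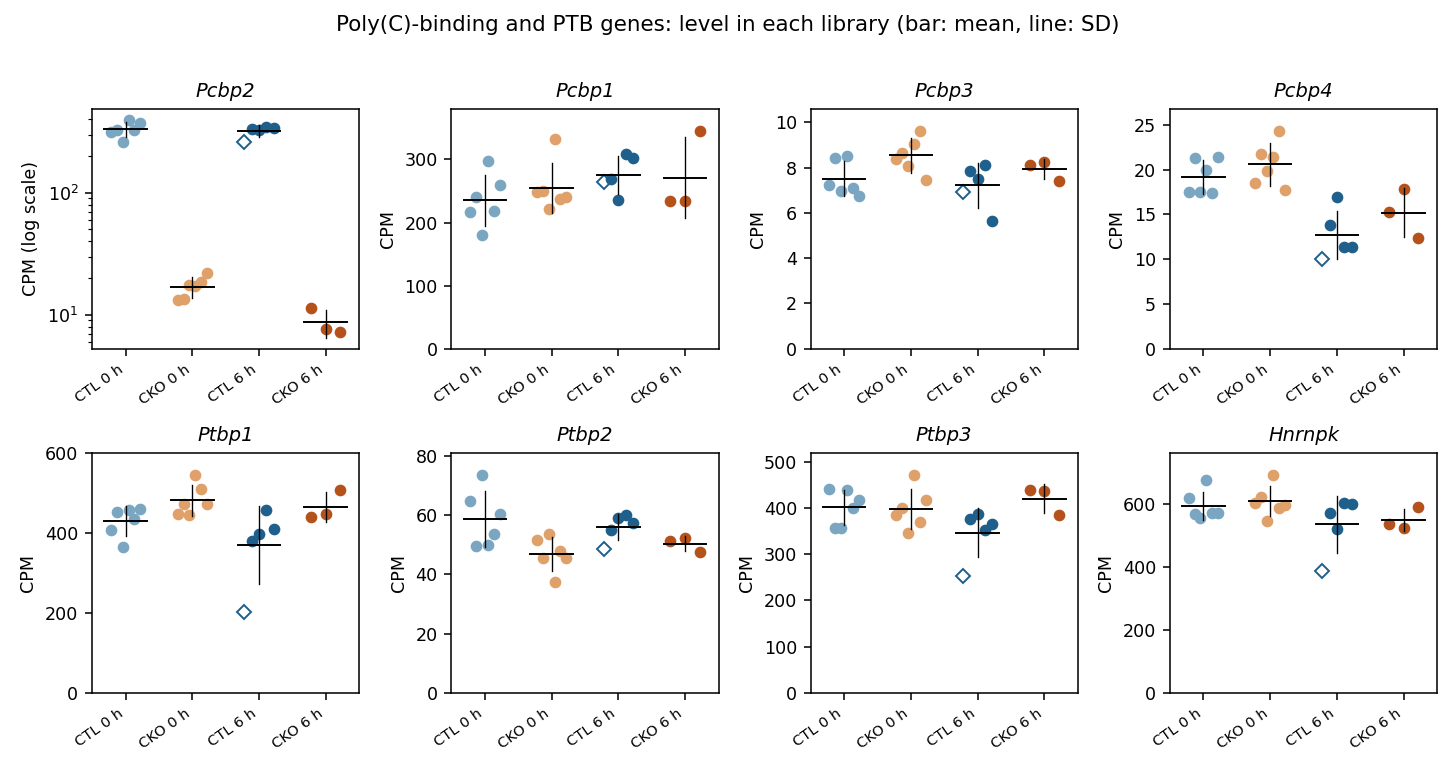
Level (CPM) of the Pcbp and Ptbp genes and Hnrnpk in each library, by group. Points are libraries, bars means and lines SD. The axis of Pcbp2 is logarithmic, and the open diamond marks CTL 6 h library 4.24. Pcbp2 is the gene whose CKO libraries (7.27 to 22.1 CPM) all lie below its CTL libraries (261 to 396 CPM), and Ptbp2 at 0 h overlaps between 49.5 and 53.8 CPM.

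Among the PTB genes the values at 0 h lay closest to a difference at Ptbp2, whose protein replaces that of Ptbp1 in neurons. At 0 h Ptbp2 was at 49.5, 57.1 and 73.7 CPM in CTL and 37.5, 46.7 and 53.8 CPM in CKO, and at 6 h at 48.6 (4.24), 55.1 (4.29), 57.3 (10.28), 59.2 (5.13) and 59.95 (9.20) CPM in CTL and 47.6 (11.18), 51.3 (5.6) and 52.3 (5.13) CPM in CKO. The CKO libraries overlapped the CTL libraries at both times, at 6 h only through CTL library 4.24. Within the 5 same-numbered pairs at 0 h, Ptbp2 was lower in CKO in 5 of 5, as 11.1% of the 14189 genes with a mean TMM-scaled level of at least 1 CPM were. The unpaired differences of -0.25 ± 0.11 (adjusted p = 0.614) at 0 h and -0.15 ± 0.13 (adjusted p = 0.502) at 6 h were not called, nor was the 0 h value with the number as a block, -0.35 (adjusted p = 0.296). Without CTL 6 h library 4.24 the 6 h difference of Ptbp2 was -0.22 (adjusted p = 0.569). Ptbp1, the ubiquitous repressor of exons, had 366, 444 and 459 CPM in CTL and 446, 472 and 546 CPM in CKO at 0 h, and was higher in CKO in 5 of 5 pairs, as 15.2% of those genes were. At 6 h its levels were 201 (4.24), 380.0 (4.29), 399 (5.13), 410.2 (10.28) and 459 (9.20) CPM in CTL and 441 (5.6), 448 (5.13) and 509 (11.18) CPM in CKO. Library 4.24 was far below every other one, and the 6 h difference of 0.33 ± 0.16 (adjusted p = 0.397) was 0.18 (adjusted p = 0.597) without it. Ptbp3 had 358, 409 and 442 CPM in CTL and 346, 393 and 473 CPM in CKO at 0 h. After 6 h it was at 254 (4.24), 354 (9.20), 366 (10.28), 376 (4.29) and 387 (5.13) CPM in CTL and 385 (11.18), 437 (5.13) and 440.4 (5.6) CPM in CKO, a difference of 0.28 ± 0.14 (adjusted p = 0.395), or 0.18 (adjusted p = 0.650) without library 4.24.

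For SR and hnRNP genes the values between genotypes were small. At 0 h the 11 Srsf genes lay between -0.23 (Srsf6, adjusted p = 0.808) and 0.10 (Srsf9, adjusted p = 0.906). The 20 Hnrnp genes at 0 h lay between -0.13 and 0.09, among them Hnrnpa3 at -0.12 (adjusted p = 0.921). At 6 h the widest values were -0.32 for Srsf12 (95% interval -0.83 to 0.20) and 0.43 for Hnrnpul1 (adjusted p = 0.372). Hnrnpul1, an hnRNP U relative, was at 159 (4.24), 313 (4.29), 314 (9.20), 328 (10.28) and 359 (5.13) CPM in CTL and 379.9 (5.6), 402 (11.18) and 415 (5.13) CPM in CKO at 6 h. All 3 CKO libraries were above all 5 CTL libraries, and without library 4.24 the difference was 0.28 (adjusted p = 0.491). Hnrnpl stood at 0.23 (adjusted p = 0.408) at 6 h, or 0.12 without that library. The signs of the members depended on library 4.24. At 6 h, 23 of the 37 were positive and 14 negative, and without it 11 were positive and 26 negative. At 0 h, 12 were positive and 25 negative with it, and 20 positive and 17 negative without it. That library enters the 0 h comparison through the sex term, the scaling and the shared spread. For Srsf4 the 0 h difference was -0.21 with it and -0.07 without it. The 0 h values also moved with the sex term. The median of the 38 members at 0 h was -0.04 in the reported fit, -0.008 with sex taken from Xist and 0.004 with no sex term. Of all genes tested, 0.424%, 0.794% and 0.705% were called at 0 h in these fits.

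Stimulation of CTL cells changed 12 of the 38 members, 2 upwards and 10 downwards. That is 31.6% of the members, where 63.4% of all genes tested were called (41.6% higher, 21.7% lower) and 56.4% of genes with a mean of at least 1 CPM (18.2% higher, 38.2% lower). The share of members called lower was 26.3%. By family, 8 of 20 Hnrnp genes (2 higher, 6 lower), 3 of 11 Srsf genes (all lower), 1 of 4 Pcbp genes (lower) and 0 of 3 Ptbp genes passed. The members' median was -0.17 log2 units, beside 0.31 for all genes tested and -0.19 for the genes with at least 1 CPM. The remaining 26 members lay between -0.45 (Srsf4) and 0.22 (Pcbp1), 6 of them positive. Without library 4.24 again 12 members were called, 10 of them the same, but 4 higher and 8 lower: Hnrnpf (-0.20, adjusted p = 0.105) and Hnrnpul2 (-0.20, adjusted p = 0.0936) dropped out, and Hnrnpa1 (0.39, adjusted p = 0.00336) and Hnrnph2 (0.30, adjusted p = 0.000349) came in. The median of the members was then -0.06, beside 0.15 for all genes tested and -0.15 for those with at least 1 CPM, and 58.2% of all genes were called (35.6% higher, 22.6% lower).

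The split between rises and falls depended on the scaling. With TMM factors and tests restricted to genes with a mean of at least 1 CPM, 13 members were called, 6 higher and 7 lower, and the members' median was 0.04 beside 0.03 for all genes in that test. Of all genes in it, 53% were called, 27.8% higher and 25.2% lower. Leaving out CKO 0 h libraries 4.24 and 5.6 together gave 0 higher and 12 lower, and moved the median of all genes from 0.31 to 0.20. Of the 27966 genes tested then, 63.1% were called, 10893 higher and 6759 lower. This was not particular to the pair. Without CKO 0 h library 4.29, 5.6 or 9.20 alone there were 0 higher and 13 lower. The median of all genes was then 0.20, with 63% to 63.3% of them called. Without CTL 0 h library 5.6 or 9.20 there were also 0 higher, with 12 and 16 lower. Leaving out CKO 0 h library 4.24 alone kept 2 higher and 10 lower, with a median of all genes of 0.31. The direction of each of the 12 called members was the same under all 32 alternatives. Srsf12, Hnrnph3, Hnrnpl, Hnrnpr and Pcbp4 were also called under all 32.

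**Figure D4:**
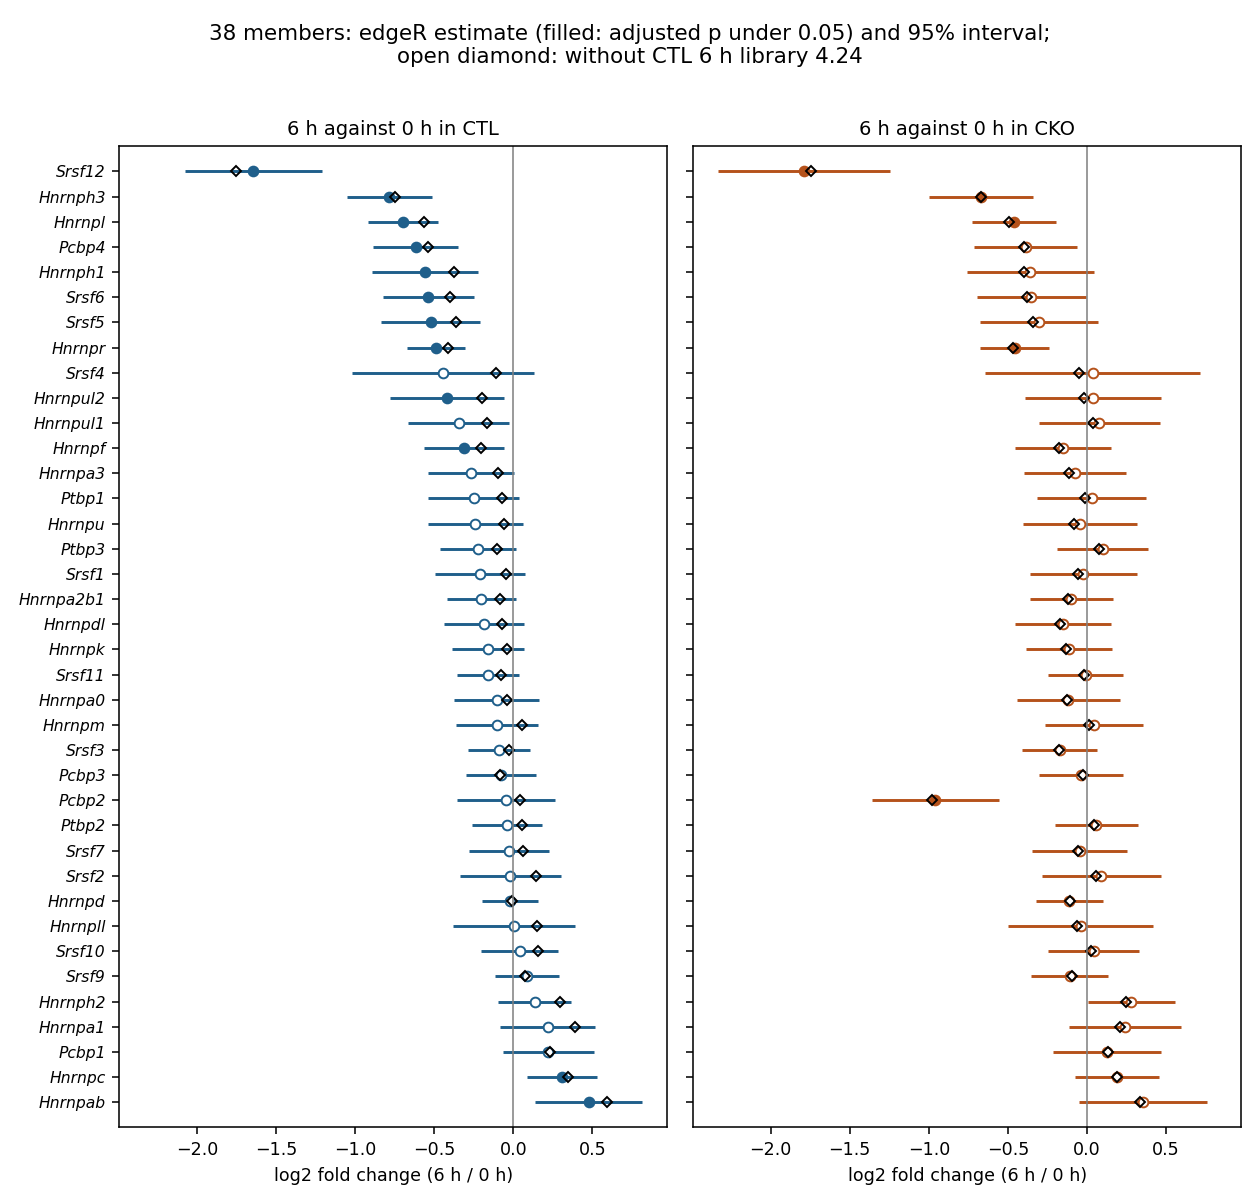
Log2 fold change of 6 h against 0 h for the 38 members in CTL and in CKO, with 95% intervals. Filled points have an adjusted p under 0.05, which 12 members had in CTL and 5 in CKO, and open diamonds give the value without CTL 6 h library 4.24. Srsf12 lies lowest in both genotypes, at -1.64 in CTL and -1.79 in CKO.

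Among SR genes the decrease was widest at Srsf12 (chr4:33208991-33233340, plus strand), which encodes an SR protein known as a splicing repressor. It is the least abundant member, with a mean log2 CPM of 1.43, below the level of 2 set for naming genes by size, and is named as a member. Its lowest, median and highest level was 3.45, 4.06 and 4.36 CPM in CTL at 0 h, and the CTL libraries at 6 h held 0.927 (5.13), 1.04 (10.28), 1.08 (9.20), 1.60 (4.29) and 1.64 (4.24) CPM. In CKO it was at 2.56, 3.27 and 4.31 CPM at 0 h and 0.729 (11.18), 1.09 (5.6) and 1.19 (5.13) CPM at 6 h. All stimulated libraries of both genotypes lay below all unstimulated ones. Srsf12 fell by 1.64 ± 0.21 log2 units in CTL (adjusted p = 4.2e-06), to a level 3.12-fold lower, and by 1.79 ± 0.26 in CKO (adjusted p = 5.78e-05). Srsf5, an abundant SR protein, was at 683, 768 and 977 CPM in CTL at 0 h and at 361 (4.24), 550.0 (9.20), 564 (10.28), 623 (5.13) and 646 (4.29) CPM at 6 h. The groups did not overlap, and the change was -0.52 ± 0.15 (adjusted p = 0.00507), or -0.37 (adjusted p = 0.0183) without library 4.24. With only genes of at least 1 CPM tested it was -0.32 (adjusted p = 0.0602), so the call was lost. Srsf6 had 434, 517 and 629 CPM at 0 h and 249.6 (4.24), 351 (5.13), 386 (4.29), 389 (10.28) and 402 (9.20) CPM at 6 h in CTL, again without overlap, and changed by -0.54 ± 0.14 (adjusted p = 0.00216). In CKO neither passed: Srsf5 changed by -0.31 ± 0.18 (adjusted p = 0.200), and Srsf6 by -0.35 ± 0.16 (adjusted p = 0.105).

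Of the hnRNP genes that fell, Hnrnph3 (chr10:63014664-63024217, minus strand), a member of the G-run binding hnRNP H group, had 83.7, 98.2 and 125 CPM in CTL at 0 h and 52.0 (10.28), 52.9 (9.20), 55.0 (4.24), 64.5 (5.13) and 65.3 (4.29) CPM at 6 h. In CKO it was at 75.9, 99.4 and 123 CPM at 0 h and 55.6 (11.18), 65.0 (5.13) and 68.1 (5.6) CPM at 6 h. Each genotype's stimulated libraries lay below its unstimulated ones, and the changes were -0.78 ± 0.13 (adjusted p = 5.58e-05) in CTL and -0.67 ± 0.16 (adjusted p = 0.00378) in CKO. Hnrnpl (chr7:28808541-28822266, plus strand), whose protein represses CD45 exons, was at 523, 592 and 638 CPM in CTL at 0 h and 251 (4.24), 383 (9.20), 388 (10.28), 414 (5.13) and 414 (4.29) CPM at 6 h. CKO libraries held 594, 615 and 657 CPM at 0 h and 425 (11.18), 436 (5.6) and 439 (5.13) CPM at 6 h. The times did not overlap in either genotype, with changes of -0.70 ± 0.11 (adjusted p = 2.66e-05) in CTL (-0.56 without library 4.24) and -0.46 ± 0.13 (adjusted p = 0.00998) in CKO. The CKO call was lost without CKO 6 h library 5.13 (adjusted p = 0.0556), without CKO 6 h library 11.18 (0.0735) and without CKO 0 h libraries 4.24 and 5.6 together (0.0546). Its relative Hnrnpll, which has been named as the activation-linked regulator of CD45 splicing, changed by 0.01 ± 0.18 (adjusted p = 0.977) in CTL and -0.04 ± 0.22 (adjusted p = 0.908) in CKO.

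Hnrnpr (chr4:136310942-136359447, plus strand) had 179, 198 and 220.2 CPM in CTL at 0 h and 118 (4.24), 137 (4.29), 145 (5.13), 149.7 (10.28) and 163 (9.20) CPM at 6 h. CKO libraries were at 187, 199 and 208 CPM and 130.0 (5.6), 141 (5.13) and 156 (11.18) CPM. No stimulated library reached the unstimulated range of its genotype, and the changes were -0.49 ± 0.09 (adjusted p = 0.000109) in CTL and -0.46 ± 0.10 (adjusted p = 0.00312) in CKO. Hnrnph1, which binds G runs as Hnrnph3 does, was at 532, 653 and 873 CPM in CTL at 0 h and 283 (4.24), 486 (10.28), 487 (4.29), 491 (5.13) and 522 (9.20) CPM at 6 h. These did not overlap, the change was -0.56 ± 0.16 (adjusted p = 0.00516), and without library 4.24, the lowest by far, it was -0.37 (adjusted p = 0.0162). In CKO Hnrnph1 changed by -0.36 ± 0.19 (adjusted p = 0.158) and was not called. Hnrnpf, another gene of that group, had 359.6, 450.0 and 510.1 CPM and 267 (4.24), 361 (5.13), 385 (10.28), 386 (4.29) and 404 (9.20) CPM in CTL, with overlap, and a change of -0.31 ± 0.12 (adjusted p = 0.0294). Hnrnpul2 had 364, 446 and 502 CPM and 151 (4.24), 355 (9.20), 364 (10.28), 396 (4.29) and 443 (5.13) CPM, also with overlap, and a change of -0.42 ± 0.17 (adjusted p = 0.0391).

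Both of these last calls depended on single libraries and on the scaling. Hnrnpf lost its call without CTL 6 h library 4.24 (given above) and without CTL 0 h library 4.24 (0.0602), 5.13 (0.0717) or 10.28 (0.0589), values being adjusted p. Hnrnpul2 lost it without CTL 6 h library 4.24 or 9.20 (0.0648) and without CTL 0 h library 4.24 (0.0562), 5.13 (0.0658) or 10.28 (0.0815). With DESeq2 the adjusted p was 0.0697 for Hnrnpf and 0.0644 for Hnrnpul2. With the number as a block Hnrnpul1 was called as well (-0.39, adjusted p = 0.0227), where the unblocked value was -0.34 ± 0.15 (adjusted p = 0.0557).

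The hnRNP genes that rose in CTL were Hnrnpab and Hnrnpc. Hnrnpab, an AU-rich element binding protein, had 258, 302 and 381 CPM at 0 h and 314 (4.24), 342 (5.13), 412 (4.29), 524 (10.28) and 593 (9.20) CPM at 6 h. Only libraries 4.29, 9.20 and 10.28 were above the whole 0 h range. It rose by 0.48 ± 0.16 (adjusted p = 0.0155), and by 0.59 (adjusted p = 0.00389) without library 4.24. The call was lost without any of 7 single libraries: CKO 0 h 4.29 (0.0682), 5.6 (0.0654) or 9.20 (0.0670), CTL 0 h 5.6 (0.0944) or 9.20 (0.0837), and CTL 6 h 9.20 (0.0618) or 10.28 (0.0770), each an adjusted p. In CKO Hnrnpab was at 302, 328 and 426 CPM at 0 h and 344 (5.13), 382 (5.6) and 540.3 (11.18) CPM at 6 h, with a change of 0.35 ± 0.19 (adjusted p = 0.168). Hnrnpc, which binds U-rich tracts, had 246, 267 and 320.4 CPM at 0 h and 308 (5.13), 309 (4.24), 342 (10.28), 361 (4.29) and 382 (9.20) CPM at 6 h in CTL. The groups overlapped slightly and it rose by 0.31 ± 0.11 (adjusted p = 0.0165). Leaving out CKO 0 h library 4.29 (0.136), 5.6 (0.132) or 9.20 (0.123), or CTL 0 h library 5.6 (0.146) or 9.20 (0.141) ended that call. The CKO 0 h libraries enter a CTL comparison through the common scaling, the shared spread and the sex term.

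**Figure D5:**
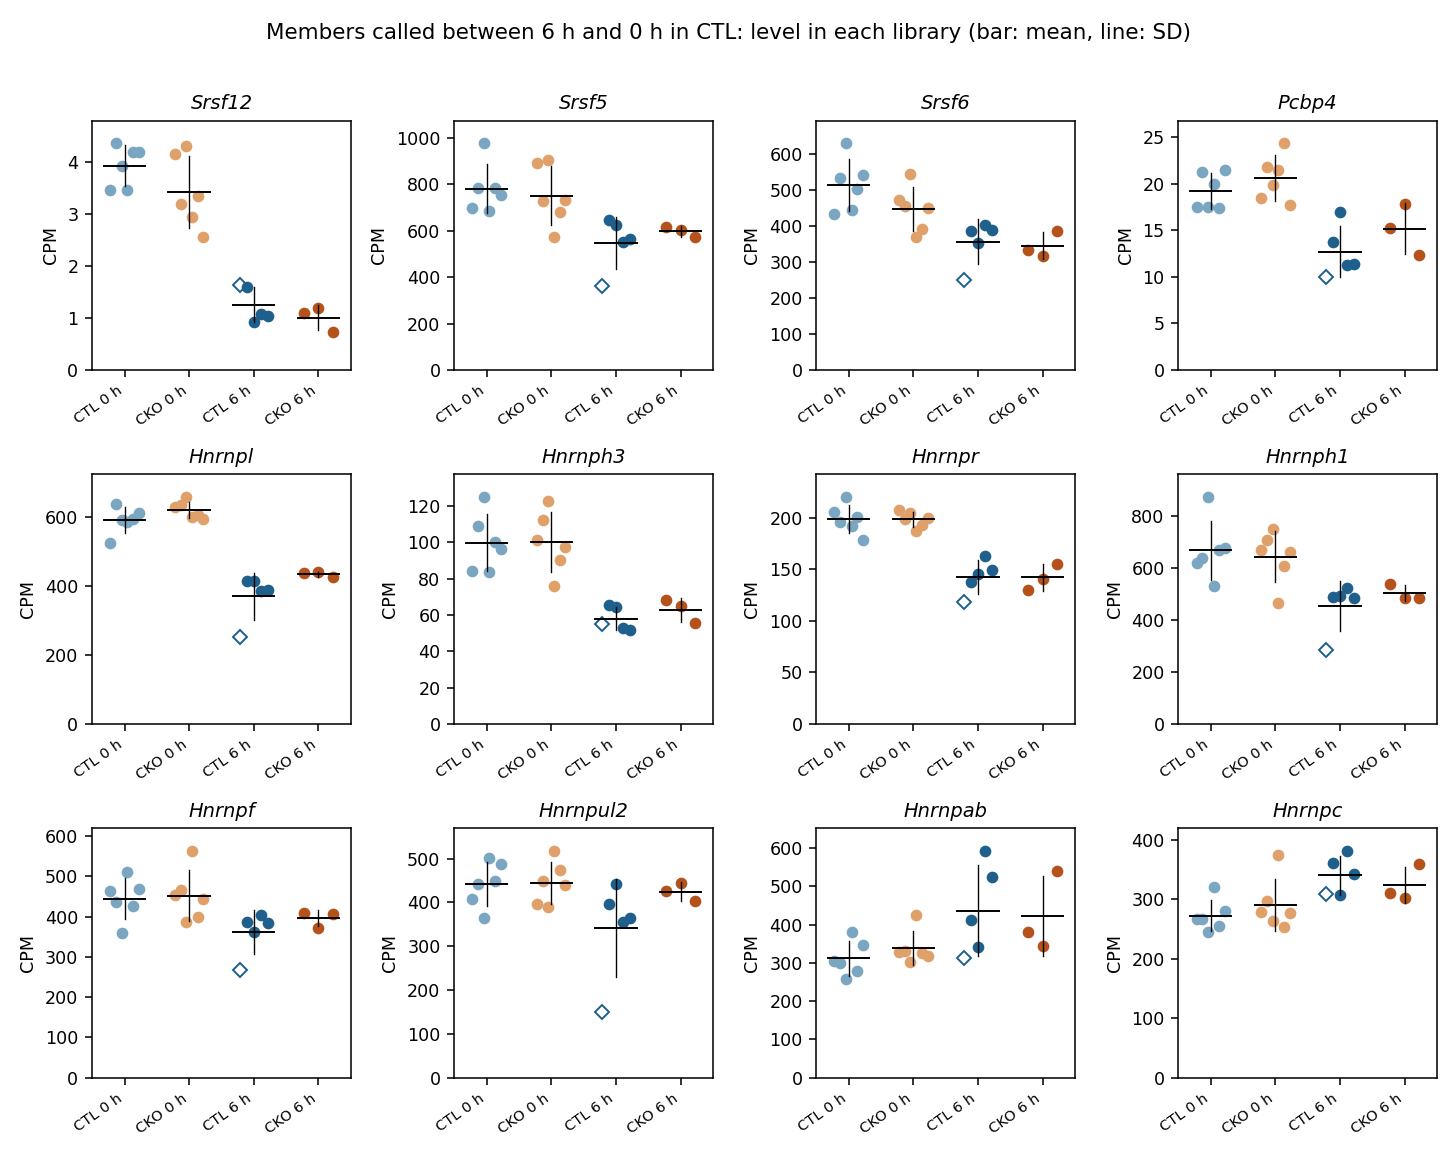
Level (CPM) of the 12 members called in stimulated CTL cells, in each library, by group. Points are libraries, bars means, lines SD and the open diamond CTL 6 h library 4.24. Srsf12, Hnrnph3, Hnrnpl and Hnrnpr are separated between 0 h and 6 h within each genotype, while the rise of Hnrnpab rests on CTL libraries 9.20 and 10.28, at 593 and 524 CPM.

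Pcbp4 (chr9:106453291-106464012, plus strand) was the only Pcbp gene other than the deleted one to be called by stimulation. In CTL it stood at 17.4, 18.7 and 21.4 CPM at 0 h and at 10.01 (4.24), 11.3 (9.20), 11.4 (10.28), 13.8 (4.29) and 16.9 (5.13) CPM at 6 h, and in CKO at 17.7, 20.6 and 24.3 CPM and 12.4 (11.18), 15.3 (5.6) and 17.9 (5.13) CPM. The times did not overlap in CTL and overlapped slightly in CKO. Pcbp4 fell by 0.62 ± 0.13 log2 units in CTL (adjusted p = 0.000435), and the CKO value was -0.39 ± 0.16 (adjusted p = 0.0626), or -0.40 (adjusted p = 0.0327) without CTL 6 h library 4.24. Its exons overlap those of Gpr62 on the opposite strand over 51 bases. Pcbp1 changed by 0.22 ± 0.14 (adjusted p = 0.165) in CTL and 0.13 ± 0.16 (adjusted p = 0.585) in CKO, and Pcbp3 by -0.08 ± 0.11 (adjusted p = 0.523) and -0.04 ± 0.13 (adjusted p = 0.840). The 3 Ptbp genes were not called in either genotype: Ptbp1 changed by -0.25 ± 0.14 (adjusted p = 0.121), Ptbp2 by -0.04 ± 0.11 (adjusted p = 0.746) and Ptbp3 by -0.22 ± 0.11 (adjusted p = 0.0973) in CTL. Exons of other called members also overlap genes on the opposite strand (Hnrnpr with Gm27022 over 715 bases, Hnrnph3 with Rufy2 over 115, Hnrnpl with Gm44702 over 32, Hnrnpab with Phykpl over 809, Hnrnpf with 4933440N22Rik over 410 and Gm43863 over 396), and Hnrnpul2 overlaps AC129217.1 on its own strand over 360 bases, so their counts carry the same uncertainty as those of Pcbp2.

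In CKO cells stimulation called 5 of 38 members, all lower: Srsf12, Hnrnph3, Hnrnpl and Hnrnpr, with the values above, and Pcbp2 itself. That is 13.2% of the members, where 32.8% of all genes tested were called (19.6% higher, 13.1% lower). This comparison rests on 3 stimulated libraries. The members' median was -0.05 log2 units, beside 0.12 for all genes tested and -0.11 for those with at least 1 CPM. The 4 genes other than Pcbp2 were also called in CTL, a comparison made on other libraries but in the same fit. Without CTL 6 h library 4.24, which enters the CKO comparison through the shared spread, the scaling and the sex term, 9 members were called, 1 higher and 8 lower, where 45% of all genes were (26.7% higher, 18.3% lower) and 44.9% of those with at least 1 CPM (15.5% higher, 29.4% lower). Those added were Hnrnph2 (0.24, adjusted p = 0.00469), Pcbp4 (given above), Hnrnph1 (-0.40, adjusted p = 0.0247) and Srsf6 (-0.38, adjusted p = 0.0241).

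The difference between the CKO and CTL responses was called for 0 of 38 members and for 0% of all genes tested, by edgeR and by DESeq2. At an unadjusted p under 0.05 there were 2725 genes, and Pcbp2 was the only member among them. Without CTL 6 h library 4.24 there were 646, again with Pcbp2 as the only member. The smallest adjusted p of the other members belonged to Ptbp3 (0.32 ± 0.18, adjusted p = 0.465), Hnrnpul1 (0.42 ± 0.24, adjusted p = 0.465), Hnrnpul2 (0.46 ± 0.27, adjusted p = 0.465) and Hnrnpl (0.23 ± 0.17, adjusted p = 0.494). Without CTL 6 h library 4.24 these values were 0.17, 0.20, 0.18 and 0.07. The 95% interval of this difference stayed within 1.5-fold for 21 of the 37 members other than Pcbp2, so differences of that size between the responses were not excluded for the other 16.

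Promoter windows of the members are given as a description. RefSeq's table (GRCm38.p6, windows from 250 bases before to 50 after a start) matched 33 of the 38 members with 46 windows, and Hnrnpll, Hnrnpul2, Pcbp3, Pcbp4 and Ptbp3 were not matched. Motifs were searched on both strands as exact letters. CACGTG, the E-box bound by MYC and its relatives, was in 7 of 46 windows (15.2%) against 7.15% of 32851 windows of all genes. CCGGAAGT, the core bound by ETS factors, was in 7 of 46 (15.2%) against 3.89%, and TGACGTCA, the site of cAMP-responsive factors, in 0 of 46 against 1.79%. The E-box windows belong to Hnrnpa3, Hnrnpd, Hnrnpf, Hnrnph2, Hnrnpm, Pcbp1 and Ptbp1. Those with the ETS core belong to Hnrnpd, Hnrnpf, Pcbp1, Srsf11, Srsf4 and Srsf5. A match is only a description of the letters. The sequence before the start follows, 5′ to 3′ on the gene's strand and free of annotated protein-coding exons, for members that fell (Srsf5, Srsf6, Hnrnpr, Hnrnph1) and for Hnrnpab, which rose. Capitals mark CCGGAAGT or its reverse complement. They lie at chr12:80945378-80945498 (plus), chr2:162931408-162931507 (plus), chr4:136310842-136310941 (plus), chr11:50376890-50376989 (plus) and chr11:51606882-51606981 (minus).
Srsf5: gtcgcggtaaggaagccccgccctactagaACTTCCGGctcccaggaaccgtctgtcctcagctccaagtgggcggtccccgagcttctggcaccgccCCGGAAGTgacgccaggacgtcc
Srsf6: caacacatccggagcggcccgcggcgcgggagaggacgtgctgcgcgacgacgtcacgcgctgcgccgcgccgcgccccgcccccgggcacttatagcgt
Hnrnpr: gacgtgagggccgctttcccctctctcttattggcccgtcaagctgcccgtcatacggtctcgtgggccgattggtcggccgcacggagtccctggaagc
Hnrnph1: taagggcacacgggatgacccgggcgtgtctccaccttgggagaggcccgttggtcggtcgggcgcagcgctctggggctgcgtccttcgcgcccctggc
Hnrnpab: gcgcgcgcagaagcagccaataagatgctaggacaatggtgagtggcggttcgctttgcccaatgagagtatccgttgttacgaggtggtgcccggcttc
Srsf5 carries the ETS core in both orientations, starting 91 and 23 bases before its start. The stretches of Srsf6, Hnrnpr, Hnrnph1 and Hnrnpab hold none of the 3 motifs.

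Kinases that phosphorylate SR proteins were mostly lower in stimulated CTL cells. Of the 10 listed, 8 were called, all lower, with a median of -0.59 log2 units, where 21.7% of all genes tested and 38.2% of those with at least 1 CPM were called lower, with medians of 0.31 and -0.19. Srpk2, an SR protein kinase, fell by 1.17 ± 0.09 (adjusted p = 4.69e-09), Clk4, a nuclear kinase of the CLK family, by 0.77 (adjusted p = 0.000123) and Srpk1 by 0.60 (adjusted p = 0.000341). Mean levels went from 133 ± 6.37 to 59.1 ± 6.40 CPM for Srpk2 and from 444 ± 31.6 to 294 ± 51.3 CPM for Srpk1 (SD, n = 6 and 5). Without library 4.24 again 8 were called and lower, with a median of -0.37, where 22.6% of all genes and 37.2% of those with at least 1 CPM were lower. With only genes of at least 1 CPM tested 7 were called, 1 higher and 6 lower, where 27.8% of all genes were higher and 25.2% lower. In CKO 3 of 10 were called, where 13.1% of all genes and 22.2% of those with at least 1 CPM were called lower, and these 3 were lower: Srpk2 at -0.91 ± 0.11 (adjusted p = 4.39e-06), Clk4 at -0.59 ± 0.17 (adjusted p = 0.0116) and the scarce Srpk3 at -3.21 ± 0.77 (adjusted p = 0.00425). Without library 4.24 there were 5 in CKO, 1 higher and 4 lower, where 18.3% of all genes and 29.4% of those with at least 1 CPM were lower.

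Other regulators of alternative splicing were called in CTL in 29 of 45 cases (8 higher, 21 lower). That is 64.4%, close to the 63.4% of all genes tested when both directions are pooled. By direction 17.8% were higher and 46.7% lower, where 41.6% and 21.7% of all genes tested were. At 1 CPM and above the shares of genes were 18.2% and 38.2%. The highest ranked rises were in genes at low levels. Khdrbs3 went from 0.391 ± 0.138 to 3.11 ± 1.14 CPM (3.02 ± 0.33, adjusted p = 7.34e-07), and Rbfox3 from 0.117 ± 0.113 to 5.14 ± 6.21 CPM (5.55 ± 0.66, adjusted p = 1.93e-06), with stimulated libraries spread from 1.27 to 16.1 CPM. Without CTL 6 h library 4.24 the Rbfox3 value was 4.77 (adjusted p = 5.35e-06) and that of Nova2 2.66 (adjusted p = 0.000123). Nova2 reached 1.78 ± 1.95 CPM (3.42 ± 0.56, adjusted p = 5.08e-05), from 0.150 ± 0.107 CPM. The leading falls were Raver2 (-1.80 ± 0.18, adjusted p = 3.44e-07), Rbmx (-0.77 ± 0.11, adjusted p = 1.13e-05) and Celf2 (-0.91 ± 0.13, adjusted p = 1.29e-05). Raver2 binds PTB, Rbmx is an hnRNP G and Celf2 is a regulator of T cell splicing. In CKO 10 were called (22.2%, against 32.8% of all genes), 6 higher, led by Khdrbs3 (3.40, adjusted p = 1.83e-06), Rbfox3 (4.09, 0.00022) and Rbfox1 (3.56, 0.00694), and 4 lower, led by Raver2 (-1.36, 0.000245), Tial1 (-0.72, 0.000716) and Rbmx (-0.69, 0.000749). The CKO count was 18 (9 higher, 9 lower) without library 4.24, where 26.7% of all genes were called higher and 18.3% lower. The CTL split was 10 higher and 10 lower of 39 tested with the filter at 1 CPM, where 27.8% of all genes were higher and 25.2% lower.

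Raver2 was also the one gene of the 4 lists called between genotypes at 0 h. It stood at 18.3 ± 2.99 CPM in CTL and 8.47 ± 1.77 CPM in CKO (SD, n = 6 and 6) and fell by 1.16 ± 0.18 log2 units (adjusted p = 0.00391). At 6 h the levels were 5.28 ± 0.977 and 3.19 ± 0.936 CPM, and the difference of -0.72 ± 0.22 (adjusted p = 0.249) was not called.

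Core spliceosome genes were called in 19 of 50 cases in CTL, 12 higher and 7 lower, with a median of 0.08. That is 38%, below the 63.4% of all genes tested, whose median was 0.31, or -0.19 at 1 CPM and above. By direction 24% were higher and 14% lower. Of all genes tested 41.6% were higher and 21.7% lower, and at 1 CPM and above 18.2% and 38.2%. Isy1 (0.70 ± 0.09, adjusted p = 4.5e-06), Snrpd1 (0.99 ± 0.16, adjusted p = 4.38e-05) and Snrpa1 (0.54 ± 0.10, adjusted p = 0.000214) led the rises, the latter pair encoding Sm and U2 snRNP proteins. Dhx16 (-0.69 ± 0.13, adjusted p = 0.000173), the U2 snRNP branch point subunit Sf3b1 (-0.59 ± 0.16, adjusted p = 0.00280) and Ddx46 (-0.43 ± 0.13, adjusted p = 0.00707) led the falls. With only genes of at least 1 CPM tested the count was 28, or 56%, where 53% of all genes were called. Of these, 26 were higher and 2 lower, which is 52% and 4% of the list, against 27.8% and 25.2% of all genes. Both the share called and the share of rises thus depended on the scaling. In CKO 2 of 50 were called, against 32.8% of all genes, Isy1 higher (0.78 ± 0.11, adjusted p = 2.61e-05) and Bcas2 lower (-0.25 ± 0.09, adjusted p = 0.0320), and 8 (6 higher, 2 lower) without library 4.24. Without that library 26.7% of all genes were called higher and 18.3% lower. Of the 10 genes for nuclear import of SR proteins and mRNA export, Ddx39b alone was called in CTL (-0.50 ± 0.12, adjusted p = 0.00142), and 0 in CKO. Of all genes tested 63.4% were called in CTL and 32.8% in CKO. With only genes of at least 1 CPM tested, 3 of the 10 were called in CTL, 2 higher and 1 lower. In that test 27.8% of all genes were higher and 25.2% lower.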

How the data were processed

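The authors deposited raw counts for Ensembl gene IDs in 1 table, which held 0 columns of other samples. Stranded mRNA libraries were read from both ends, per the labels' protocols, which give RNA integrity only as a range over all libraries. Per the submitters' processing notes, the build was GRCm38 and the tools were STAR 2.5.2b, Subread 1.5.2 with featureCounts, and Trimmomatic 0.36. The roles of these tools, the strand setting and the annotation release were not given in the sources used here.

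GENCODE M21 gave symbols, biotypes, merged exon lengths and GRCm38 coordinates for 49056 of 49315 IDs and none for 259. The test was edgeR 4.0.16 under R 4.3.3: filterByExpr (minimum count 10, minimum total 15) kept 28082 genes, TMM factors scaled the libraries, and a robust quasi-likelihood fit held the 4 groups and the labelled sex over all 20 libraries. Every adjusted p is Benjamini-Hochberg adjusted over all genes of that fit, two-sided, with calls under 0.05, unless another tool is named. CPM and RPKM were computed from the TMM-scaled counts. Totals of 26.4 M to 85.6 M counts limit the precision less than the spread between libraries, so no counting interval is given. The exact test of Pcbp2 used log2 CPM with a pseudocount of 0.5 counts. Libraries of a group were compared for copies: the chi-square of their counts, divided by its degrees of freedom, was 18.7 to 271 over 43 pairs. Python 3.11.15 with pandas 2.3.3 and matplotlib 3.10.9 made the summaries and plots, and the tests were checked on simulated data.

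The members, the other gene lists and the tests were chosen with earlier results of these data known. Named by rule are every member by value or range, with library values for the Pcbp and Ptbp genes and for up to 8 called members per direction whose mean log2 CPM reached 2; for a comparison that called only Pcbp2, the 4 members with the smallest adjusted p; and up to 3 called genes per direction from each other list. Alternatives were RLE factors, no filter beyond 1 count, a filter at a mean of 1 CPM, DESeq2 1.42.0, no sex term, sex from Xist, the number as a replicate block, only the groups compared, and each library left out in turn. Leaving out CTL 6 h library 4.24 together with another change, or CKO 0 h libraries 4.24 and 5.6 together, was added after seeing the data.

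The numbers in the titles were checked as pairs on deviations from group means. Same-numbered libraries correlated at 0.253 to 0.703 between CTL and CKO at 0 h (5 pairs) and at 0.257 to 0.524 between CTL at 0 h and 6 h (5 pairs), which pairs these groups by that measure. The reported fit is unpaired, and the block is an alternative. For CKO at 0 h and 6 h the 3 pairs gave 0.0998 to 0.5, which falls short of the limit of 0.1. CTL and CKO at 6 h share only 1 number.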

Additional observations from a re-analysis of the deposited data

Results flagged for a closer look

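Member levels of 1 library were set against the others of its group in the 114 combinations of gene and group with 5 or 6 libraries, by the gap to the nearest library relative to the group's range (Dixon's 95% value). In 18 of them a library stood apart. For a single test chance gives about 1 in 20, but the members share the same libraries. The 114 tests are therefore not independent, and 18 cannot be judged against that rate. The rule was not run over all genes.

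In 11 of the 18, CTL 6 h library 4.24 was the lowest. Its levels in CPM, each followed by the nearest library, were 725 against 1020 for Hnrnpa2b1, 345 against 588 for Hnrnpa3, 283 against 486 for Hnrnph1, 76.0 against 132 for Hnrnph2, 251 against 383 for Hnrnpl and 266 against 468 for Hnrnpm. It held 159 against 313 for Hnrnpul1, 262 against 330 for Pcbp2, 254 against 354 for Ptbp3, 224 against 400 for Srsf1 and 7.73 against 46.9 for Srsf4. The last is the widest gap, and exons of Srsf4 overlap those of Gm12992 on the opposite strand over 1532 bases.

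CKO 0 h library 5.13 was the highest of its group for Hnrnpab (426 against 331 CPM), Hnrnpc (375 against 297 CPM), Hnrnpm (554 against 463 CPM) and Pcbp1 (333 against 249 CPM). CTL 0 h library 5.6 was the highest for Srsf5 (977 against 786 CPM) and Srsf10 (200 against 168 CPM). Hnrnpd was lowest in CTL 6 h library 5.13 (228 against 267 CPM). The part of RNA quality in these gaps was not tested, since the labels give integrity by range only.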

How the results depend on the processing

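Over 32 alternatives, Pcbp2 was the only member called between genotypes at both times, and 0 members were called for the difference of responses. With 1 library left out at a time, the members called numbered 1 to 1 at 0 h and 1 to 1 at 6 h between genotypes, 10 to 16 for CTL stimulation, 4 to 9 for CKO stimulation and 0 to 0 for the difference. The count of 5 for CKO stimulation became 9 without CTL 6 h library 4.24, 11 when that library was left out with number as a block and sex from Xist, and 9 when it was left out with a filter at a mean of 1 CPM. Of all genes tested, 45%, 55.8% and 44.4% were called under these settings. Under that last setting Hnrnpm, at -0.10 in CTL, was 0.23 (adjusted p = 0.0110), and why was not tested. Directions were tallied only for values called in the reported fit or under the alternative, and Hnrnpm gave the single reversed value among them. Values that were not called also changed sign. For CTL stimulation, Srsf10 kept its sign under 24 of the 32 alternatives and Srsf9 under 27. Of the other values tallied, 566 kept their direction and side of the threshold, 67 newly passed it and 42 no longer did. The replicate block gave 13 calls for CTL and 6 for CKO stimulation (7 without a sex term), where Pcbp4 in CKO was -0.44 (adjusted p = 0.0334), and 1 between genotypes at each time. Of all genes tested, this block called 64.6% for CTL and 41.4% for CKO stimulation (48% without a sex term). The paired permutation of Pcbp2 at 0 h gave -4.35 with p = 0.0625 over 5 pairs (exact sign-flip test). At 6 h CTL and CKO share only 1 number, so the sign-flip test could not be made, and the replicate block in edgeR gave -5.33 for Pcbp2. Tests on only the groups compared cannot be made for the difference of responses, which needs all 4 groups.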

Other observations

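At 6 h, libraries whose title number is 9.20, 10.28 (CTL) or 11.18 (CKO) held the 3 highest levels of the 8 stimulated libraries for 16 of the 38 members, and the 3 lowest for none. That is 42.1% of the members, where these libraries were the 3 highest for 10.8% and the 3 lowest for 5.45% of the 14189 genes with a mean TMM-scaled level of at least 1 CPM. The other 5 include CTL 6 h library 4.24, the lowest of its group for 31 of the 38 members, and the counts were not made without it. This grouping was noticed after the values were seen, and the labels do not say what the numbers mark. For Hnrnpll, which regulates CD45 splicing, these 3 libraries were at 132 to 168 CPM and the other 5 at 69.6 to 98.8 CPM. Hnrnpab was at 524 to 593 CPM in the 3 and at 314 to 412 CPM in the 5, Pcbp1 at 303 to 346 CPM and at 234 to 269 CPM, and Hnrnpu at 998 to 1111 CPM and at 477 to 913 CPM. Il2ra, the activation-linked gene for CD25, was at 299 CPM in 9.20, 241 CPM in 10.28 and 309 CPM in 11.18, and at 89.4 to 153 CPM in the other 5. Both genotypes are found on either side, and the relation to the genotype results was not tested.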
